A study of Mus musculus with 5 samples.

Results

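The genes described here encode chemokines and their receptors, interleukins and their receptors, and the numbered members of the tumour necrosis factor (TNF) ligand and receptor families, measured in the sciatic nerve of mice 2 days after birth. Members were the probe sets whose single gene symbol in the platform annotation begins with Ccl, Cxcl, Ccr, Cxcr, Il, Tnfsf or Tnfrsf followed by a number. The rule found 65 probe sets for 65 genes among the 10361 probe sets of the table. RefSeq lists 168 protein-coding mouse genes whose symbols fit the rule, so the members are a part of these families, and the rest are not analysed here. Another 4 probe sets carry a family symbol together with other symbols and were left out by the rule.

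Each array measured 1 pool of 12 nerves, and pups came from crosses of Ebf2 heterozygous parents. The KO group is Ebf2-/- (pools 2 and 4) and the WT group is Ebf2+/+ (pools 1, 9 and 11), all on a C57Bl6N background and 2 days old. Ebf2 belongs to the EBF (early B cell factor) transcription factors. The labels give the genotype of the whole animal without naming the part of the gene that is missing. Neither the number of pups behind a pool nor their sex is given in the labels. A pool is a mixture of all cells of the nerve, so fewer cells of a type and less RNA per cell cannot be told apart.

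Chemokines are small secreted proteins that guide migrating leukocytes by binding to G protein-coupled receptors. They are named CC or CXC by whether the first conserved cysteines are adjacent or separated by another residue. Interleukins act through receptors that are mostly pairs of chains, with signalling through JAK kinases and STAT factors or, for the interleukin-1 and interleukin-17 families, through adaptors that lead to NF-kappaB. TNF family ligands bind trimeric receptors, some of which carry a death domain and can start apoptosis. In peripheral nerve these molecules are best known from injury, when Schwann cells, fibroblasts and resident macrophages secrete them and recruit monocytes.

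All levels are log2 values as deposited, and each log2 fold change was taken as KO minus WT (difference of the group means), with its standard error (SE) from limma. A gene was called when its p-value, adjusted over all 10361 probe sets by Benjamini-Hochberg, was below 0.05. Levels of different genes were not compared, since probe sets differ in their response. The values come without detection calls, and 15 of the 65 members had a mean level above the 50th percentile of the table.

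The targeted gene stood on the side of its label in all 5 pools. Ebf2 read 9.25 and 8.74 in KO pools 2 and 4, against 11.55, 11.13 and 11.40 in WT pools 1, 9 and 11 (log2 fold change -2.37, SE 0.19, limma adjusted p = 4.97e-07). The median level of the array was 9.11 and 8.93 in KO pools 2 and 4, against 9.11, 9.09 and 9.04 in WT pools 1, 9 and 11. Schwann cell markers were present, with a mean over 7 of 12 listed markers of 11.56 and 11.12 in the KO pools against 11.78 to 11.92 in the WT pools. WT pools 9 and 11 stood apart from WT pool 1 for skin and muscle genes: 12 keratinocyte markers averaged 7.38 and 7.63 in the KO pools, and 7.30, 9.32 and 8.63 in WT pools 1, 9 and 11. For part of the genes below, the log2 fold change against WT pool 1 alone is given as well; it had the other sign in 12 of the 65 members.

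Among the 65 members, 1 rose, Tnfrsf10b, and 1 fell, Il16, while 63 did not pass. The share called was 0.676% over all probe sets, against 3.08% of the members, a share that rests on those 2 genes. Calls higher in KO were 0.347% of all probe sets and calls lower in KO were 0.328%. At an unadjusted p below 0.05 there were 10 members against 14.3% of all probe sets, which is near the members' share of 15.4%. Of these 10, 8 were higher in KO (background 7.14%) and 2 were lower (background 7.17%). The median log2 fold change of the members was 0.05, beside -0.002 over all probe sets, with 36 members above 0 and 29 below. Both KO pools lay above every WT pool in 12 members (background 17.5%) and below every WT pool in 4 (background 13.3%). With a distance of at least 0.5 between the groups, 1 member remained on the higher side (background 0.241%), Tnfrsf10b, and 0 on the lower side (background 0.174%).

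**Figure D1:**
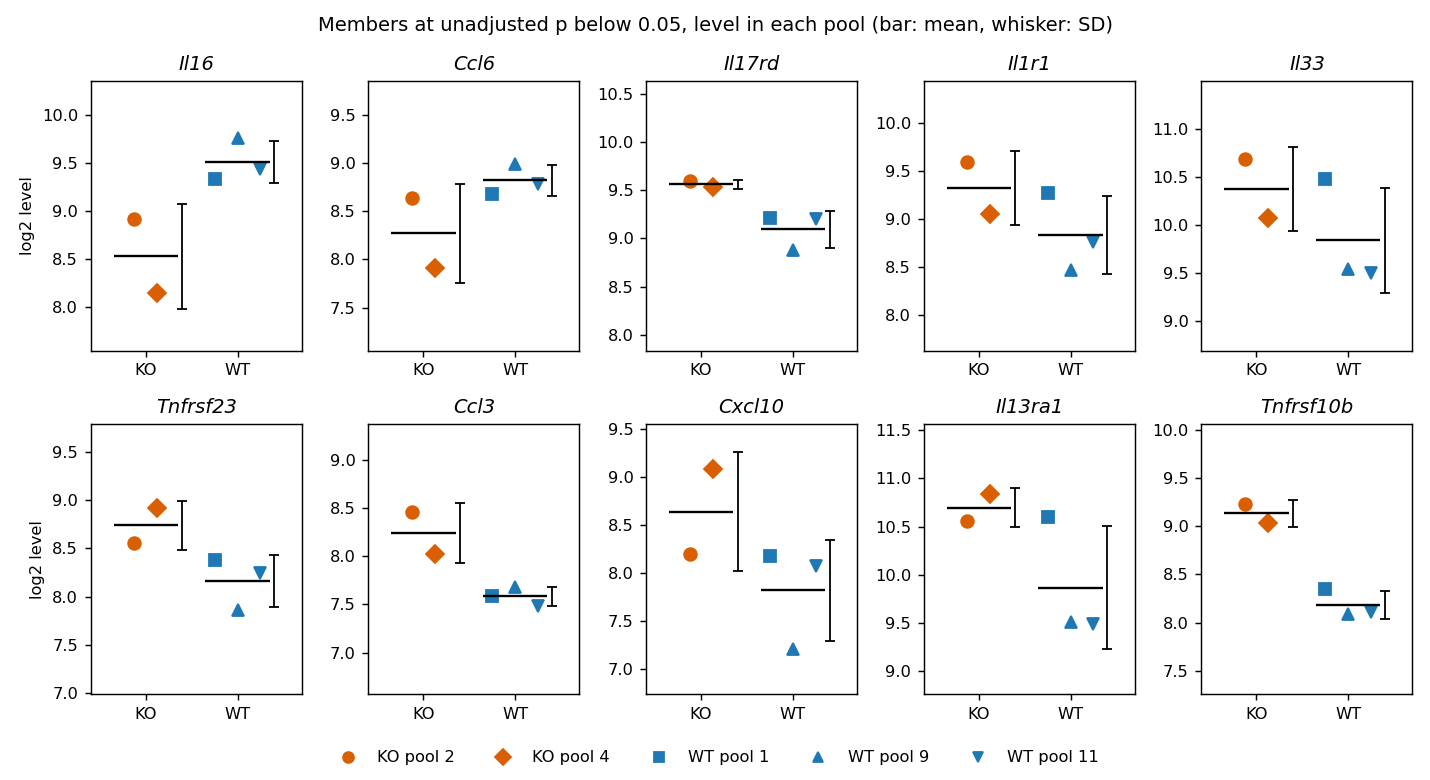
Log2 level (vertical axis, each panel spanning the same range of log2 units) of the 10 members at an unadjusted p below 0.05, in the 2 KO pools on the left and the 3 WT pools on the right of each panel. Horizontal bars are group means and whiskers are SDs. Tnfrsf10b, with KO pools at 9.23 and 9.03, is separated from its WT pools by 0.68, while Il13ra1, Il33 and Il1r1 have WT pool 1 close to or among the KO pools. WT pool 1 is also close to KO pool 2 in Cxcl10 (8.17 and 8.20) and in Ccl6 (8.68 and 8.63).

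Tnfrsf10b encodes the death receptor through which the ligand TRAIL starts apoptosis in mouse cells, and is a known target gene of p53. It read 9.23 and 9.03 in KO pools 2 and 4, against 8.35, 8.08 and 8.11 in WT pools 1, 9 and 11. The KO pools were both high and the groups did not overlap. The level averaged 9.13 ± 0.14 (SD, n = 2) in KO and 8.18 ± 0.15 (SD, n = 3) in WT, a 1.94-fold rise (log2 fold change 0.95, SE 0.17, limma adjusted p = 0.0112). Against WT pool 1 alone the log2 fold change was 0.78 and did not pass (limma adjusted p = 0.839), and 0 of 10361 probe sets passed in that comparison, Ebf2 included (286 at unadjusted p below 0.05). The call was also lost without KO pool 2, KO pool 4, WT pool 1 or WT pool 9, with log2 fold changes from 0.85 to 1.05.

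The other genes of the TRAIL system moved less. Tnfsf10, which encodes TRAIL itself, read 7.48 and 6.78 in KO pools 2 and 4, against 7.39, 6.83 and 6.97 in WT pools 1, 9 and 11 (log2 fold change 0.07, SE 0.21). Its KO pools lay at both ends of the WT range. Tnfrsf23, which in the mouse encodes a TRAIL receptor without a death domain, read 8.56 and 8.92 in the KO pools, against 8.38, 7.86 and 8.24 in the WT pools. Both KO pools were above the WT range, with a log2 fold change of 0.58 (SE 0.19, unadjusted p = 0.00586, limma adjusted p = 0.152), or 0.36 against WT pool 1 alone. Tnfrsf11b, for osteoprotegerin, a soluble decoy that binds TRAIL as well as RANKL, had 8.07 and 7.93 in the KO pools, against 8.04, 7.85 and 7.93 in the WT pools (log2 fold change 0.06, SE 0.17). Of the signalling partners downstream of the death receptor, the adaptor Fadd had a log2 fold change of -0.44 (SE 0.20, limma adjusted p = 0.313), with 8.80 and 8.03 in KO pools 2 and 4 against 8.80 to 8.96 in WT, so that only KO pool 4 lay below the WT pools.

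Tnfrsf10b lies on the same chromosome as Ebf2, chromosome 14, with 22 protein-coding genes of the RefSeq annotation between them. Of these 22 genes 10 were measured, 0 were called, and 5 had an unadjusted p below 0.05 (background 14.3%). Of the 5, 2 were higher in KO (background 7.14%) and 3 lower (background 7.17%). The lower ones included Nefl and Nefm, for which WT pool 9 stood high. Nefl read 11.58 there against 10.35 and 10.41 in WT pools 1 and 11, and Nefm 10.29 against 8.04 and 8.35. Within 60 protein-coding genes on either side of Ebf2, 53 genes besides Ebf2 were measured and Tnfrsf10b was the 1 that was called. An unadjusted p below 0.05 was found in 12 of the 53, Tnfrsf10b included, beside the background of 14.3%. On the whole of chromosome 14, 2 of 357 measured probe sets were called, Ebf2 and Tnfrsf10b, a share of 0.56% beside the background of 0.676%. The immediate measured neighbour of Tnfrsf10b, Rhobtb2, was at -0.28 (SE 0.18, limma adjusted p = 0.479). Whether the position near the targeted locus plays a part in the difference was not tested, and this neighbourhood was looked at after the value of Tnfrsf10b was seen.

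**Figure D2:**
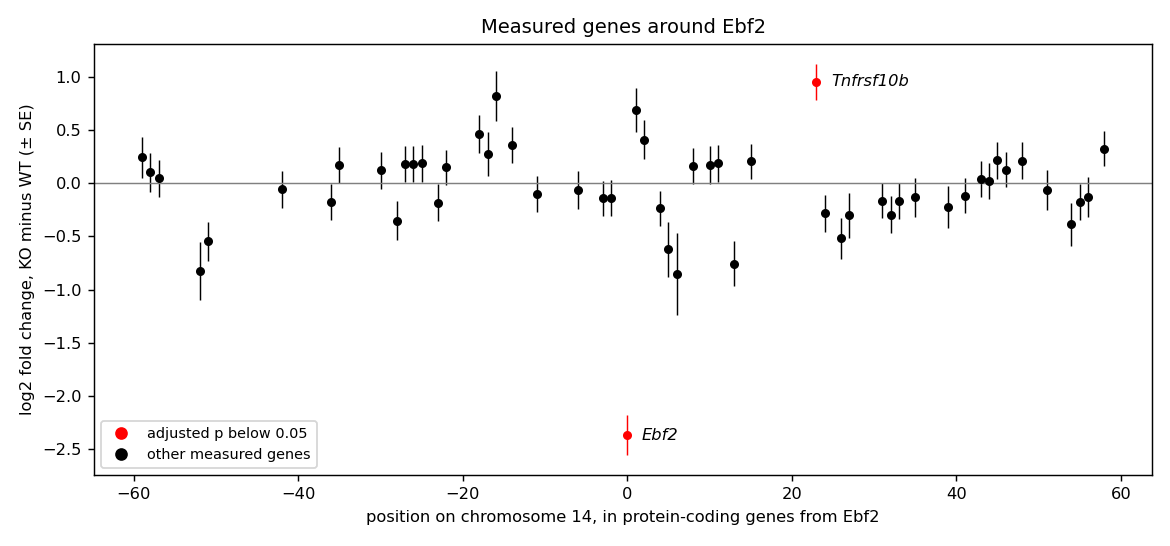
Log2 fold change (KO minus WT, ± SE, vertical axis) of the measured genes on chromosome 14, ordered by the number of protein-coding genes from Ebf2 (horizontal axis, up to 60 on each side). Ebf2 at -2.37 and Tnfrsf10b at 0.95, 23 genes away, are the 2 called genes (red).

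The remaining TNF family members did not pass. Tnfrsf11a, the receptor RANK, read 8.09 and 8.20 in the KO pools, against 7.99, 7.87 and 7.83 in the WT pools (log2 fold change 0.25, SE 0.17, limma adjusted p = 0.509). Its ligand Tnfsf11, RANKL, was at 0.03 (SE 0.17), with 8.82 and 8.91 in the KO pools against 8.70 to 8.91 in the WT pools. The KO pools of Tnfrsf11a were above the WT range and those of Tnfsf11 within it. Tnfsf9 and its receptor Tnfrsf9, a costimulatory pair of T cells, were at -0.17 (SE 0.17) and -0.01 (SE 0.17). Tnfrsf25, the death-domain receptor of lymphocytes also called death receptor 3, was at -0.22 (SE 0.17) with 7.31 and 7.52 in the KO pools, against 7.46, 7.75 and 7.68 in the WT pools, and at -0.05 against WT pool 1 alone. Tnfsf14, Tnfrsf12a and Tnfrsf21 had log2 fold changes from -0.17 to 0.02. As a group the 8 TNF family receptors had a median of 0.04 and the 4 ligands of -0.07.

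Il16 was the 1 called member that was lower. Its product is cut from a larger precursor, attracts CD4+ cells, and has a long form known from neurons in the mouse. Il16 read 8.92 and 8.15 in KO pools 2 and 4, against 9.33, 9.75 and 9.43 in WT pools 1, 9 and 11. Both KO pools lay below the WT range, with KO pool 4 the lowest of all 5, as in 31.8% of all probe sets. The level averaged 8.53 ± 0.55 (SD, n = 2) in KO and 9.51 ± 0.22 (SD, n = 3) in WT, a 1.97-fold fall (log2 fold change -0.97, SE 0.21, limma adjusted p = 0.0353). It was -0.59 without KO pool 4 (adjusted p = 0.782) and -0.80 against WT pool 1 alone (adjusted p = 0.839). The call was lost as well without KO pool 2 (-1.36), WT pool 1 (-1.06) or WT pool 9 (-0.85). The next gene on chromosome 7, Stard5, for a sterol-binding protein, was also low in KO, with 10.53 and 9.92 in KO pools 2 and 4 against 10.84, 11.07 and 10.97 in WT pools 1, 9 and 11 (log2 fold change -0.74, SE 0.19, limma adjusted p = 0.0702). Stard5 was looked at after the value of Il16 was seen, and the other 5 protein-coding genes within 3 places of Il16 were not analysed here.

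Schwann cell markers had the same order of the KO pools, since in 7 of 7 measured markers KO pool 4 read lower than KO pool 2. That order also held in 48.1% of all probe sets, and in 12 of 12 endothelial, 6 of 8 macrophage and 4 of 5 leukocyte markers. It held in 2 of 15 skeletal muscle and 1 of 12 keratinocyte markers. Among the Schwann cell markers, the myelination factor gene Egr2 (log2 fold change -1.13) and the myelin gene Mag (-0.99) fell. T cell markers were measured for 2 of 10 genes, and averaged 7.25 and 7.48 in KO pools 2 and 4 against 7.12, 7.36 and 7.32 in WT pools 1, 9 and 11. Both genes, Cd3e (log2 fold change 0.17) and Cd8a (0.04), were without a call. The part of the cell mixture in the Il16 difference was not tested.

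Sequence upstream of the starts was read for 51 of the 65 members from RefSeq (assembly GRCm38.p6), as 250 bases before each of 62 annotated starts, and was searched on both strands for 4 short motifs. These were the EBF palindrome (TCCC and GGGA separated by any 2 bases), a form of the NF-kappaB site (GGG and TTTCC separated by any 2 bases), the TATA letters TATAAA, and the core of the interferon-stimulated response element (GAAA and GAAA separated by any 2 bases). The EBF motif was in 0 of the 62 windows of members and in 0.779% of the 32851 windows of all genes. With a share that low, 0 of 62 cannot tell the members from all genes. Sequence farther than 250 bases from the starts was not searched. The NF-kappaB form was in 8 of 62 and in 1.41% of all, the TATA letters in 14 of 62 and 12.4% of all, and the interferon element in 3 of 62 and 2.98% of all. Il16 has 3 annotated starts, and the third, at chr7:83655496-83655745 on the minus strand, is shown because it alone holds a motif of the 4 (capitals, NF-kappaB form, beginning 49 bases before the start).
Il16: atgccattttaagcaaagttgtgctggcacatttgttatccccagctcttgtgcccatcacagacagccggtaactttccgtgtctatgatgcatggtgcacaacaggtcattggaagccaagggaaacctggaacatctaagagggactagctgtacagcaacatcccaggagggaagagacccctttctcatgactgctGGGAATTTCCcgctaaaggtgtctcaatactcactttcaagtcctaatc

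The same 10 letters, GGGAATTTCC, stand before the starts of the CXC chemokine genes Cxcl1, Cxcl2 and Cxcl3, which encode attractants of neutrophils and lie in 1 cluster on chromosome 5. They are shown beside Il16 because they share its motif and had 0 calls: the windows are 50 bases on the plus strand, at chr5:90891136-90891185 for Cxcl1, chr5:90903782-90903831 for Cxcl2 and chr5:90786008-90786057 for Cxcl3, with the NF-kappaB form in capitals.
Cxcl1: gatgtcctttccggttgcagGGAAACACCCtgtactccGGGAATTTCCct
Cxcl2: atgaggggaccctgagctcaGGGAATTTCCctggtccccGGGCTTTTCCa
Cxcl3: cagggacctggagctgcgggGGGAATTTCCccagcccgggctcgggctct

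Cxcl1 read 7.51 and 7.82 in the KO pools, against 7.51, 7.72 and 7.77 in the WT pools (log2 fold change -0.005, SE 0.17). The Cxcl1 groups overlapped. Cxcl3 was at -0.003 (SE 0.17), with KO pool 2 below and KO pool 4 above the WT pools (6.02 to 6.09). Cxcl2 was at 0.27 (SE 0.18, limma adjusted p = 0.504), through KO pool 4 at 5.86 against 5.24 to 5.49 in the WT pools. Neutrophil markers, 8 of 12 measured, averaged 7.34 and 7.21 in the KO pools against 6.96, 7.30 and 7.22 in the WT pools, and 0 of them were called.

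Cxcl9 and Cxcl10 lie on chromosome 5 as well, with 1 protein-coding gene between them. Both encode ligands of the receptor Cxcr3 that are induced by interferon gamma, and Cxcl10 also by type I interferon. Cxcl10 read 8.20 and 9.07 in KO pools 2 and 4, against 8.17, 7.21 and 8.07 in WT pools 1, 9 and 11 (log2 fold change 0.82, SE 0.26, unadjusted p = 0.00439, limma adjusted p = 0.136). The difference came from KO pool 4, which stood high, and WT pool 9, which stood low, while KO pool 2 was 0.03 above WT pool 1. It was 0.38 without KO pool 4, 0.51 without WT pool 9 and 0.46 against WT pool 1 alone, and passed without WT pool 11 (0.94, limma adjusted p = 0.0293). Cxcl9 read 7.99 and 7.89 in the KO pools, against 8.08, 8.26 and 8.08 in the WT pools (log2 fold change -0.20, SE 0.17, limma adjusted p = 0.609). The windows of both genes, on the minus strand at chr5:92348890-92349139 for Cxcl10 and chr5:92328080-92328329 for Cxcl9, are shown because these neighbours differed in sign. The interferon element also stands before Ccl19 (log2 fold change -0.11) and Cxcl14 (-0.33), both below 0, and the part of these motifs was not tested. Capitals mark the interferon element in Cxcl10 and the TATA letters in Cxcl9.
Cxcl10: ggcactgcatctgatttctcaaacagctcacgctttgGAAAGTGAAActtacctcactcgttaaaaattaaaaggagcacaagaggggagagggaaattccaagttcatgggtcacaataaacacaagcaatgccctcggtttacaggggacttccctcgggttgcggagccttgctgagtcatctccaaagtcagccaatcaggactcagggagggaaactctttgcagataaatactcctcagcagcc
Cxcl9: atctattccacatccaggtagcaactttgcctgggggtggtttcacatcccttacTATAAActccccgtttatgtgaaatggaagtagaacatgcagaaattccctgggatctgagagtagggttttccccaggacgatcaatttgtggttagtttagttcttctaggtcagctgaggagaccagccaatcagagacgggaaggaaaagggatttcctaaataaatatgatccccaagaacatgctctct

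Cxcl13 varied more between pools than between genotypes. Its product guides B cells into lymphoid follicles. It read 9.21 and 7.12 in KO pools 2 and 4, against 9.01, 6.77 and 7.06 in WT pools 1, 9 and 11, so that 1 pool of each genotype was high. The distance of 2.09 between the KO pools was the largest among the members. The log2 fold change of 0.55 (SE 0.49, limma adjusted p = 0.614) turned to -0.49 without KO pool 2 and -0.84 against WT pool 1 alone. Cxcl14, a chemokine made by epithelia and fibroblasts, read 8.38 and 8.52 in the KO pools, against 8.37, 9.08 and 8.88 in the WT pools (log2 fold change -0.33, SE 0.20, limma adjusted p = 0.456). WT pools 9 and 11 were high, as for keratinocyte markers (9.32 and 8.63, against 7.30 in WT pool 1), and the difference turned to 0.08 against WT pool 1 alone. The part of skin cells in it was not tested. Across the 9 CXC chemokines the median was -0.003, with 4 above 0 and 5 below.

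The CC chemokine genes on chromosome 11 included neighbours with log2 fold changes of opposite sign. Ccl3, a chemokine of activated macrophages that binds Ccr1 among other receptors, read 8.46 and 8.02 in KO pools 2 and 4, against 7.59, 7.68 and 7.48 in WT pools 1, 9 and 11. Both KO pools were above the WT range. Its log2 fold change of 0.66 (SE 0.18, unadjusted p = 0.0014) did not pass (limma adjusted p = 0.0857), and was nearly the same against WT pool 1 alone (0.66) and without any 1 WT pool (0.61 to 0.71). It was 0.88 without KO pool 4 and 0.44 without KO pool 2.

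Ccl6 and Ccl9, rodent chemokines that also bind Ccr1, lie beside Ccl3 in the order Ccl9, Ccl6, Ccl3, with 0 other protein-coding genes between Ccl6 and either neighbour, and had log2 fold changes below 0. Ccl6 read 8.63 and 7.91 in the KO pools, against 8.68, 9.00 and 8.78 in the WT pools (log2 fold change -0.55, SE 0.20, unadjusted p = 0.012, limma adjusted p = 0.199). Ccl9 read 9.26 and 8.72 in the KO pools, against 9.25, 9.43 and 9.22 in the WT pools (log2 fold change -0.31, SE 0.18, limma adjusted p = 0.454). In both genes KO pool 4 was the lowest pool, while KO pool 2 lay just below the WT range in Ccl6 and within it in Ccl9. KO pool 4 was the lowest pool in 31.8% of all probe sets and in 14 of the 65 members (21.5%). Without KO pool 4 the log2 fold change was -0.19 for Ccl6 and -0.04 for Ccl9, and without KO pool 2 it was -0.91 for Ccl6 and -0.58 for Ccl9. Their windows are shown with that of Ccl3, since these adjacent genes differed in sign: all are on the minus strand, at chr11:83649379-83649628 for Ccl3, chr11:83593088-83593337 for Ccl6 and chr11:83578637-83578886 for Ccl9. Capitals mark TATA letters on either strand, which overlap each other at one place in Ccl9, and the NF-kappaB form nearest its start. Ccl3 and Ccl6 hold 0 of the 4 motifs in these windows.
Ccl3: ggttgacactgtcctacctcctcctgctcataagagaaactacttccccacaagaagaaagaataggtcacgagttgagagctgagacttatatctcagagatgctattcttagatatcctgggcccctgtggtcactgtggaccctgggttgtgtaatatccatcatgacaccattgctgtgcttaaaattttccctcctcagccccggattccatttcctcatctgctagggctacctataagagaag
Ccl6: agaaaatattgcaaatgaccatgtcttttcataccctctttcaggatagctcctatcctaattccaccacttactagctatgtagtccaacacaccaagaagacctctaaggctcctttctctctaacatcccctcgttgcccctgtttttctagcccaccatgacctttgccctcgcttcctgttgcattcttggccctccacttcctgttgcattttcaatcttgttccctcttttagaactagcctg
Ccl9: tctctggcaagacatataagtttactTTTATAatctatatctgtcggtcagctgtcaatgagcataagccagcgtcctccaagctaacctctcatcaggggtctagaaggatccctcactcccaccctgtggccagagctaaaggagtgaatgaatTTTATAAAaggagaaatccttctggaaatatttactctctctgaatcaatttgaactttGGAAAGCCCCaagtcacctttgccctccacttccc

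**Figure D3:**
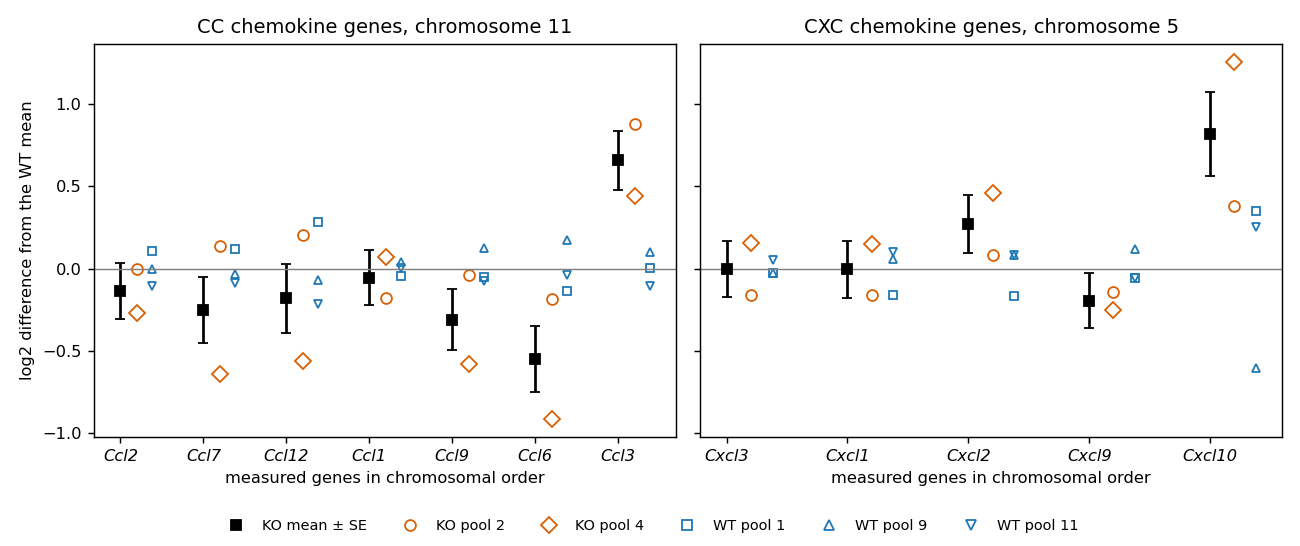
Log2 difference from the WT mean (vertical axis) for the measured chemokine genes of chromosomes 11 and 5, in chromosomal order (horizontal axis). Black squares with whiskers are the KO mean ± SE, orange symbols the 2 KO pools and blue symbols the 3 WT pools. Ccl3 (0.66) and Cxcl10 (0.82) stand above 0, beside Ccl6 (-0.55) and Cxcl9 (-0.20).

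The monocyte chemokines and their receptors were low in KO pool 4 and not in KO pool 2. Ccl7, a ligand of Ccr2, read 9.32 and 8.55 in KO pools 2 and 4, against 9.31, 9.16 and 9.10 in the WT pools. Its log2 fold change was -0.25 (SE 0.20), and 0.13 without KO pool 4. Ccl2, the main attractant of monocytes after nerve injury, read 9.31 and 9.04 in the KO pools, against 9.42, 9.31 and 9.21 in the WT pools (log2 fold change -0.13, SE 0.17).

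Ccr2, the receptor of Ccl2 and Ccl7 on monocytes, read 6.37 and 5.87 in KO pools 2 and 4, against 6.68, 6.31 and 6.31 in the WT pools (log2 fold change -0.32, SE 0.19, limma adjusted p = 0.459, or -0.56 against WT pool 1 alone). Ccr1 read 7.22 and 5.68 in KO pools 2 and 4, against 7.13, 6.86 and 6.86 in the WT pools. The KO pools of Ccr1 lay above and below all WT pools, and its log2 fold change of -0.50 (SE 0.28) turned to 0.27 without KO pool 4. Ccl12, a mouse ligand of Ccr2, had the same order, with 6.83 and 6.07 in the KO pools against 6.42 to 6.91 in WT.

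In all, 7 of 9 CC chemokines and 2 of 4 chemokine receptors were lower in KO pool 4 than in KO pool 2, against 48.1% of all probe sets and 26 of all 65 members (40.0%). General leukocyte markers moved the same way between the KO pools in 4 of 5 measured (of 14). Their means were 8.60 and 8.33 in KO pools 2 and 4 against 8.38 to 8.51 in the WT pools. Narrower lists differed: KO pool 4 was lower than KO pool 2 in 0 of 2 T cell, 0 of 1 B cell and 3 of 10 mast cell markers. It was lower in 1 of 2 natural killer cell and 5 of 8 neutrophil markers. Macrophage markers, 8 of 20 measured, averaged 9.79 and 9.59 in KO pools 2 and 4, against 9.71, 9.66 and 9.52 in the WT pools, and 6 of 8 were lower in KO pool 4 than in KO pool 2. Among them Lyz2 read 10.82 and 10.11 in the KO pools against 10.74 to 10.84 in WT, while Adgre1, an adhesion receptor gene of macrophages, read 9.06 and 9.18 in the KO pools against 8.59 to 8.96 in WT. The median over the probe sets of the table was also 8.93 in KO pool 4 beside 9.11 in KO pool 2. The part of leukocytes and of this lower median in these values was not tested. In the 4 chemokine receptors the median was -0.09, and in the 9 CC chemokines -0.13, with 7 below 0.

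Other chemokine genes, from a list that the symbol rule does not cover, were measured for 7 of 14 and 0 were called in either direction (median -0.01). Ackr3, a scavenging receptor of Cxcl12, was at 0.34 (SE 0.17, limma adjusted p = 0.380) with 9.03 and 9.20 in the KO pools, against 8.90, 8.60 and 8.83 in the WT pools. Cx3cr1, the fractalkine receptor of tissue macrophages, was at -0.35 (SE 0.19) with 9.22 and 8.59 in the KO pools against 9.22 to 9.32 in WT, again through KO pool 4.

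**Figure D4:**
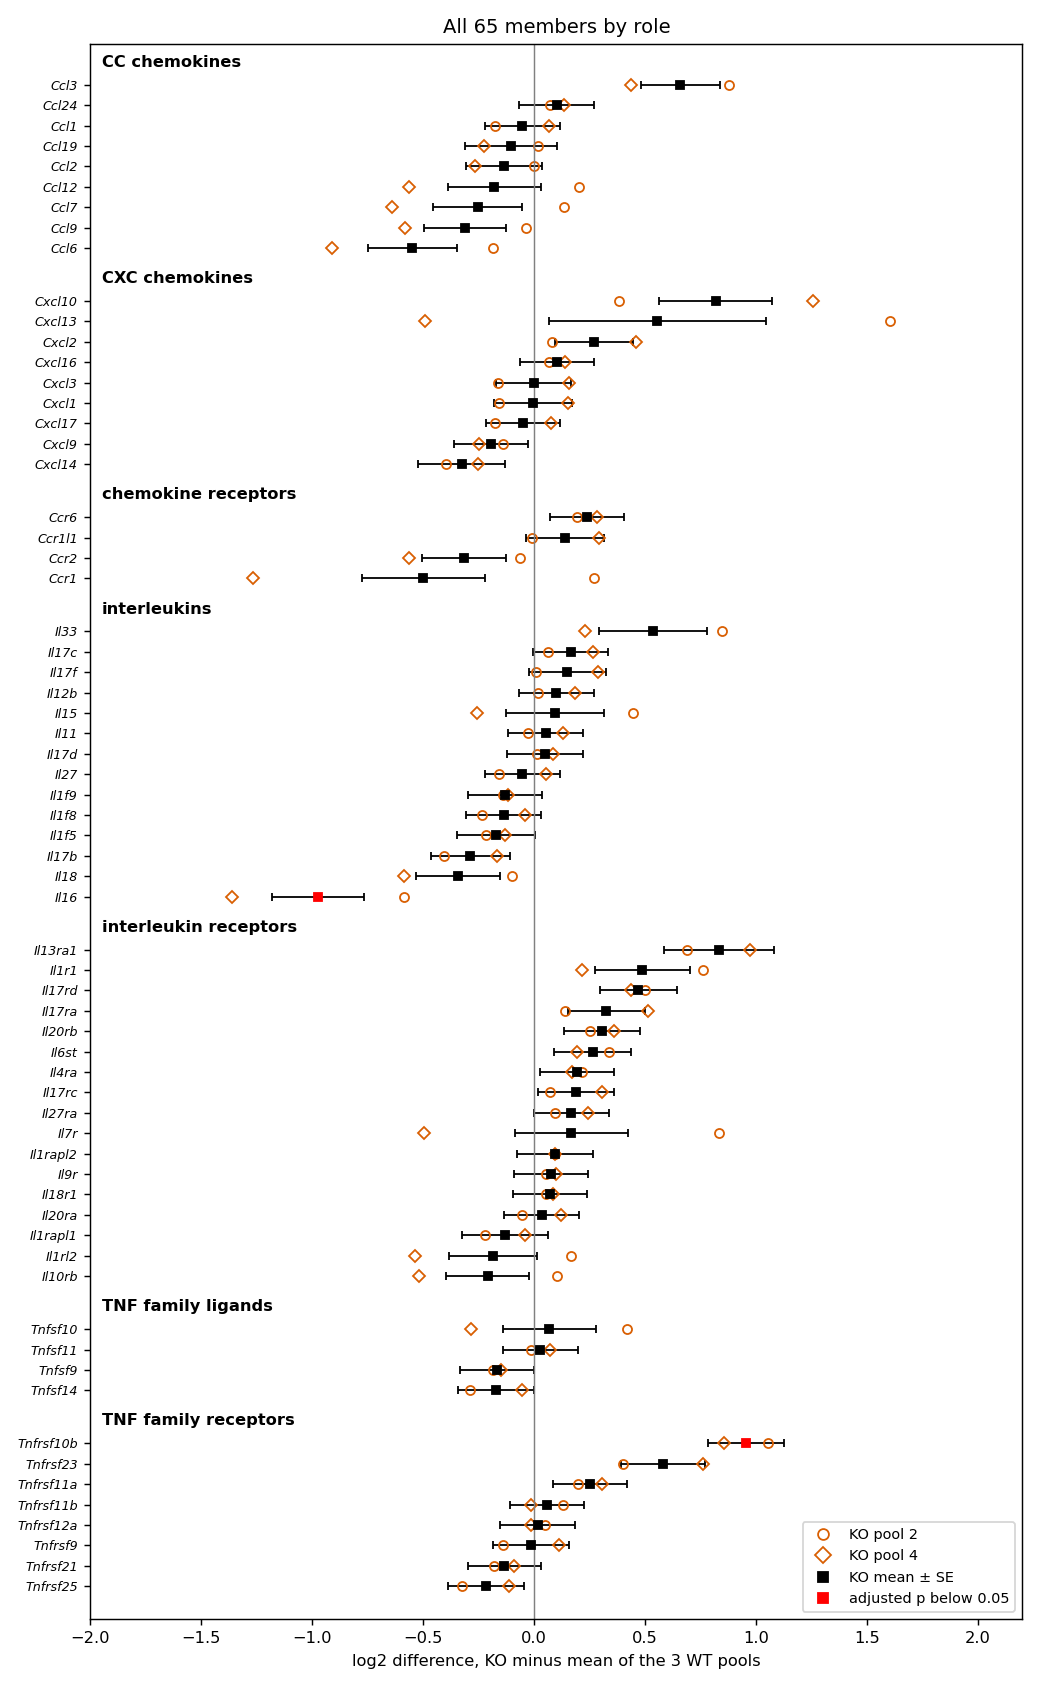
Log2 difference from the mean of the 3 WT pools (horizontal axis) for all 65 members, grouped by role down the page. Squares with whiskers are the KO mean ± SE, red where the adjusted p was below 0.05, and open orange symbols are the 2 KO pools. The 2 red squares are Tnfrsf10b (0.95) and Il16 (-0.97), and 14 of 17 interleukin receptors lie above 0, beside 5159 of all 10361 probe sets.

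Interleukin receptors lay mostly above 0 with 0 calls. Of 17 measured, 14 were above 0 and 3 below, with a median of 0.17, beside 5159 of all 10361 probe sets above 0. At an unadjusted p below 0.05 there were 3, all higher in KO (background 7.14%). Against WT pool 1 alone these 3 were at 0.09 (Il13ra1), 0.05 (Il1r1) and 0.35 (Il17rd). Fibroblast markers were also above 0 in 7 of 7 measured (median 0.28, 0 called) and endothelial markers in 12 of 12 (median 0.43, 0 called). The fibroblast markers averaged 12.00 and 11.99 in the KO pools against 11.81, 11.57 and 11.65 in WT pools 1, 9 and 11, and the endothelial markers 10.71 and 10.48 in the KO pools against 10.51, 10.10 and 10.06 in the WT pools. Their part in the receptor values was not tested.

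Il13ra1, the chain that binds interleukin-13 and pairs with Il4ra, read 10.55 and 10.84 in KO pools 2 and 4, against 10.60, 9.51 and 9.49 in WT pools 1, 9 and 11. WT pool 1 stood between the KO pools and the other WT pools stood about 1 unit lower. The log2 fold change of 0.83 (SE 0.25, unadjusted p = 0.00318) did not pass (limma adjusted p = 0.120) and was 0.09 against WT pool 1 alone. Il4ra was at 0.19 (SE 0.17), with 9.73 and 9.68 in the KO pools against 9.41 to 9.61 in WT, so that its groups did not overlap.

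Il33, a nuclear cytokine of stromal and endothelial cells that is released on damage, read 10.68 and 10.07 in the KO pools, against 10.47, 9.54 and 9.50 in the WT pools (log2 fold change 0.54, SE 0.24, unadjusted p = 0.0393, limma adjusted p = 0.316). Il1r1, the signalling receptor of interleukin-1, read 9.59 and 9.05 in the KO pools, against 9.27, 8.47 and 8.76 in the WT pools (log2 fold change 0.49, SE 0.22, unadjusted p = 0.0348, limma adjusted p = 0.304). In both genes WT pool 1 lay between the KO pools, and against it alone the log2 fold changes were -0.10 for Il33 and 0.05 for Il1r1. Smooth muscle and pericyte markers had the same split of the WT pools, with means of 10.47 and 10.56 in the KO pools against 10.61, 9.76 and 9.50 in WT pools 1, 9 and 11. Their part in Il13ra1, Il33 and Il1r1 was not tested.

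Of the other interleukin-1 family members, Il18 was low through KO pool 4, with 7.47 and 6.98 in the KO pools against 7.39 to 7.82 in the WT pools (log2 fold change -0.34, SE 0.19, limma adjusted p = 0.416). Its receptor chain Il18r1 was at 0.07 (SE 0.17). Il1f5, Il1f8 and Il1f9, which belong to the interleukin-36 group of the epidermis, ranged from -0.17 to -0.13, and Il1f5 was at 0.07 against WT pool 1 alone. Il1rl2, the receptor of that group, was at -0.19 (SE 0.20), again with KO pool 4 low at 9.49 against 10.19 in KO pool 2. Il1rapl1, which organises synapses and was chosen after its values were seen, was at -0.13, and at -0.52 against WT pool 1 alone (unadjusted p = 0.0283).

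**Figure D5:**
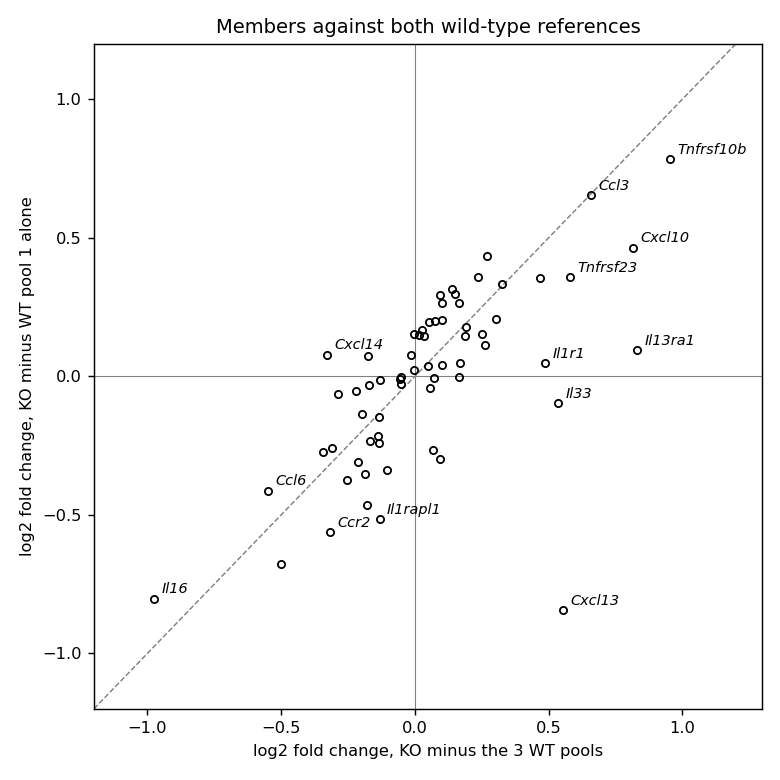
Log2 fold change of each of the 65 members against all 3 WT pools (horizontal axis) and against WT pool 1 alone (vertical axis), with the line of equal values dashed. Ccl3 lies on the line, Il16 and Tnfrsf10b near it, while Il13ra1 (0.09 on the vertical axis) and Il1r1 (0.05) lie near 0 and Cxcl13 (-0.84) and Il33 (-0.10) below it.

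The interleukin-17 family was represented by 3 receptors and 4 ligands. Il17rd, a receptor-like protein also known as Sef that restrains fibroblast growth factor signalling, read 9.59 and 9.53 in the KO pools, against 9.21, 8.88 and 9.20 in the WT pools. Both KO pools were above the WT range and close to each other (log2 fold change 0.47, SE 0.17, unadjusted p = 0.0134, limma adjusted p = 0.209), with 0.35 against WT pool 1 alone. Il17ra, the chain shared by most receptors of the family, read 8.04 and 8.41 in the KO pools, against 7.89, 7.82 and 7.99 in the WT pools (log2 fold change 0.33, SE 0.17, limma adjusted p = 0.403). Il17rc was at 0.19 (SE 0.17). The ligands Il17c, Il17d and Il17f were at 0.16, 0.05 and 0.15, and Il17b was at -0.29 (SE 0.18) with 8.49 and 8.73 in the KO pools, against 8.67, 8.97 and 9.04 in the WT pools. Il17b was -0.07 against WT pool 1 alone.

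Il6st encodes gp130, the shared signalling chain of interleukin-6, interleukin-11, LIF, CNTF and oncostatin M, several of which act on neurons and Schwann cells. It read 12.87 and 12.72 in the KO pools, against 12.68, 12.34 and 12.58 in the WT pools (log2 fold change 0.26, SE 0.17, limma adjusted p = 0.504, or 0.11 against WT pool 1 alone). Of the partners outside the symbol rule, the oncostatin M receptor gene Osmr was at 0.65 (SE 0.22, limma adjusted p = 0.162), with 10.22 and 9.49 in KO pools 2 and 4 against 9.57, 8.89 and 9.13 in the WT pools. Against WT pool 1 alone Osmr was at 0.28. Cntfr, for the CNTF receptor, was at 0.42 (SE 0.18, limma adjusted p = 0.286), with both KO pools (10.33 and 10.68) above the WT pools (9.96 to 10.27), and at 0.23 against WT pool 1 alone. In that list of other cytokine genes, 13 of 27 were measured, 9 were above 0 and 0 were called (median 0.22). At an unadjusted p below 0.05, 3 were higher (background 7.14%). The third was Kitl, the growth factor of mast cells and melanocytes, at 0.52 (SE 0.18, limma adjusted p = 0.178), and the mast cell protease gene Cpa3 was at 0.52 (SE 0.17, limma adjusted p = 0.166). Mast cell markers averaged 8.80 and 8.84 in the KO pools against 8.60 to 8.65 in the WT pools, 9 of 10 above 0 and 0 called.

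Among receptors of lymphoid cytokines, Il7r had the widest spread, with 6.68 and 5.35 in KO pools 2 and 4, against 6.02, 5.77 and 5.77 in the WT pools, so that the KO pools lay on both sides of WT (log2 fold change 0.17, SE 0.25). Il15, which supports natural killer cells, read 7.95 and 7.25 in the KO pools, against 7.12 to 7.89 in the WT pools (log2 fold change 0.09, SE 0.22, or -0.30 against WT pool 1 alone). Il10rb, shared by receptors of interleukin-10 and interleukin-22, was at -0.21 (SE 0.19), with KO pool 4 low. Il20rb was at 0.30 (SE 0.17) with 8.28 and 8.39 in the KO pools above 7.83 to 8.13 in WT. The 14 interleukin genes had a median of -0.003, with 7 on each side of 0.

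Ligand and receptor were both measured for 7 of 53 pairs looked up, and in 0 of the 7 were both sides called. In 2 of the 7, Ccl2 with Ccr2 and Ccl7 with Ccr2, both sides were below 0 by more than 0.1, and Ccr2 is shared by both. The SEs of these genes, 0.17 to 0.20, are larger than 0.1. The pairs looked up did not hold all measured pairs named above. Ccl6 (-0.55) and Ccl9 (-0.31) with Ccr1 (-0.50), and Ccl12 (-0.18) with Ccr2 (-0.32), were also below 0 on both sides. So were Il1f5, Il1f8 and Il1f9 (-0.17 to -0.13) with Il1rl2 (-0.19), while Ccl3 (0.66) and Ccr1 differed in sign. Of the pairs looked up, Tnfsf11 (0.03) with Tnfrsf11a (0.25) and Tnfrsf11b (0.06), and Tnfsf10 (0.07) with Tnfrsf10b (0.95), were above 0 on both sides. Outside the pairs looked up, the same held for Il11 (0.05) with Il6st (0.26), and for Il17c (0.16) and Il17f (0.15) with Il17ra (0.33). In the pair of Tnfsf10 and Tnfrsf10b the receptor was called and the ligand was not.

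Signalling genes downstream had 0 calls as well. Of 12 measured JAK-STAT genes (of 23), 8 were above 0 (median 0.20), led by Socs6 at 0.46 (SE 0.18, limma adjusted p = 0.238), while Stat6, which serves the interleukin-4 and interleukin-13 receptors, was at -0.43 (SE 0.19, limma adjusted p = 0.305) with 10.21 and 9.58 in KO pools 2 and 4. Of 12 measured NF-kappaB and adaptor genes (of 42), 4 were higher (background 7.14%) and 1 lower (background 7.17%) at an unadjusted p below 0.05 (median 0.14). Irak3, which restrains interleukin-1 receptor signalling, was at 0.65 (SE 0.21, limma adjusted p = 0.147), with 10.64 and 10.41 in the KO pools against 10.20, 9.38 and 10.04 in the WT pools, and was at 0.32 against WT pool 1 alone. Traf6, the ubiquitin ligase of the same route, was at 0.58 (SE 0.21) through KO pool 4 (11.23, against 10.47 in KO pool 2 and 9.95 to 10.47 in WT). Of 7 measured TNF family genes outside the symbol rule (of 16), all 7 were above 0 with 0 called (median 0.18). Eda2r, a receptor of ectodysplasin, was the highest at 0.59 (SE 0.19, limma adjusted p = 0.145), with 8.01 and 7.77 in the KO pools against 7.66, 7.11 and 7.11 in the WT pools. WT pools 9 and 11 were the low ones, and against WT pool 1 alone Eda2r was at 0.23.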

How the data were processed

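The deposited table holds log2 values made by the authors with RMA per the submitters' processing notes, 1 value per probe set and array. No RMA settings are stated in the sources used here. In every probe set the fourth-ranked value exceeded the lowest by at least 0.175, a bound that a filter on spread leaves, so genes with little spread are not analysed here.

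Symbols came from the platform annotation, and all 65 members matched RefSeq (GRCm38.p6) by gene identifier. KO and WT were compared with limma 3.58.1 in R 4.3.3 (lmFit and eBayes, no covariates, 3 residual and 17.4 prior degrees of freedom), two-sided. The fit was also run on simulated data drawn from its own variance model, without shifts between pools. That run cannot show how the fit handles such shifts in these data. The number of arrays limits the precision, and since nothing says that the pools came from separate litters, the p-values reflect the spread between pools alone, which can be technical. Members, gene lists and ligand-receptor pairs were chosen with earlier results of these data known. Named members were those at adjusted or unadjusted p below 0.05, the 10 highest and 10 lowest, those with groups 0.5 apart, and measured pairs; others given with values were chosen after their values were seen. The marker lists for B cells (1 of 10 measured, median -0.25), natural killer cells (2 of 8, -0.14), skeletal muscle (15 of 15, -0.40) and adipocytes (4 of 8, -0.22) held 0 calls, and the Schwann cell list held 2, both lower. Skeletal muscle markers averaged 10.93 and 11.14 in KO pools 2 and 4, against 10.45, 11.99 and 11.84 in WT pools 1, 9 and 11. Adipocyte markers averaged 7.017 and 7.254 in the KO pools, against 7.104, 7.615 and 7.419 in the WT pools. In both lists WT pools 9 and 11 were the high ones. Alternatives were 2 scalings, a filter on dim probe sets, 2 settings of the variance model, leaving out each pool, and WT pool 1 as the only reference. Both scalings used the probe sets of the table alone, which need not be the whole array.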

Additional observations from a re-analysis of the deposited data

How the results depend on the processing

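Tnfrsf10b and Il16 kept their direction in every alternative run, and the calls depended on the setting. Over all probe sets 70 were called, against 1 after median centring, 1 after quantile normalisation, 0 without moderation, 158 with an intensity trend, 287 among probe sets above the 50th percentile, 0 against WT pool 1 alone, and 0 to 105 when 1 pool was left out. Called members numbered 2, against 0 after either scaling, without moderation and against WT pool 1 alone, and 0 to 3 when 1 pool was left out; the 3 came without WT pool 11 and included Cxcl10 (adjusted p = 0.0293). Il13ra1 passed only above the 50th percentile (adjusted p = 0.0252), where Tnfrsf10b was not tested. Members higher at unadjusted p below 0.05 numbered 8, against 3 above the 50th percentile (15 members tested), 4 without moderation, 2 against WT pool 1 alone and 2 to 8 when 1 pool was left out; lower ones numbered 2, against 1, 0, 1 and 1 to 8 in the same order. The 8 lower members (12.3%) came without KO pool 2, where 16.8% of all probe sets were lower and 5.51% higher at that p. Over all probe sets the split at unadjusted p was 740 higher and 743 lower, against 840 and 392 after median centring, where the median of all genes moved from -0.002 to 0.06. The median of the members was 0.048, against 0.107 after centring, 0.071 after quantile normalisation, 0.016 above the 50th percentile and 0.011 to 0.077 when 1 pool was left out. Ebf2 was not called without moderation (-2.37, adjusted p = 0.560), against WT pool 1 alone (-2.56) or without WT pool 1, KO pool 2 or KO pool 4 (-2.62 to -2.11 over all pools left out). With 1 KO pool, that pool is assumed to vary like the WT pools.

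Signs turned, always without a call, for Tnfrsf9 (0.045 after centring, 0.027 after quantile normalisation and 0.077 against WT pool 1 alone) and, against WT pool 1 alone, for Cxcl14 (0.079), Tnfrsf11b (-0.043), Tnfsf10 (-0.264), Il18r1 (-0.005), Il33 (-0.10), Cxcl13 (-0.84), Il15 (-0.30), Il7r (-0.004), Cxcl1 (0.15), Cxcl3 (0.02) and Il1f5 (0.07), which with Tnfrsf9 makes 12 of 65 members. Scalings and left-out pools were run gene by gene for the 28 members of the naming rule, and there, with 1 pool left out, the log2 fold change ran from -0.14 to 0.11 for Tnfrsf9, -1.27 to 0.269 for Ccr1, -0.643 to 0.135 for Ccl7, -0.041 to 0.069 for Tnfsf11, -0.013 to 0.13 for Tnfrsf11b, -0.284 to 0.418 for Tnfsf10, -0.005 to 0.108 for Il18r1 and -0.492 to 1.60 for Cxcl13. The causes were not tested. No paired analysis was possible because the KO and WT pools share no pool number.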
